A study of Mus musculus with 5 samples.

Results

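*Zfp42*, *Yy1* and *Yy2*, the 3 mouse genes of the REX1 and YY1 family, were examined among 21938 protein-coding genes of the GENCODE annotation for peaks of REX1 and of its ubiquitin ligase RNF12. Peaks were assigned to a gene when their summit, the base of highest enrichment, lay in the annotated gene body or within 5 kb of it. This gave 19 peaks at the 3 genes, of which 8 were in the REX1 list of 96050 peaks, 6 in the RNF12 WT list of 97602 and 5 in the RNF12 H569A,C572A list of 98124. The peaks came from chromatin immunoprecipitation and sequencing (ChIP-seq) with a V5 antibody in female mouse embryonic stem cells (mESCs) of a hybrid 129/Sv-Cast/Ei background, with 1 library for each list. The REX1 library is described in the labels as wild-type cells carrying FLAG-V5-REX1, whereas the study's text refers to REX1 occupancy as known from earlier work, and how these fit together is not given in the sources used here. The RNF12 libraries came from *Rlim*+/- cells, which keep a functional copy of the gene for RNF12, stably expressing FLAG-V5-RNF12 WT from a pCAG vector after puromycin selection, or the same construct with H569A and C572A. These are substitutions in the catalytic RING domain that inactivate the ligase. RNF12 cells were given 15 µM of the proteasome inhibitor MG132 for 3 h and cross-linked with 2 mM DSG and 1% formaldehyde. Whether the REX1 library was treated in the same way is not given in the sources used here, so the tagged protein, the cell preparation and the library cannot be told apart in any difference between the REX1 list and the RNF12 lists. The series also holds 2 input libraries, labelled as WT cells with no tagged protein named, which were not analysed here.

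REX1 (encoded by *Zfp42*), YY1 and YY2 are transcription factors with closely related C2H2 zinc fingers. *Yy1* is the ancestral gene and is expressed in most tissues, whereas *Yy2* and *Zfp42* arose from it by retroposition, the copying of a spliced transcript back into the genome. REX1 is a marker of undifferentiated mESCs and is degraded after ubiquitylation by RNF12, and the family shares recognition of DNA with a core of ATGGC. Whether REX1 occupies its own gene and those of its relatives, and whether RNF12 lies at the same places, is the question put to the lists here.

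The genes differ in structure. *Zfp42* (ENSMUSG00000051176.6) lies on chromosome 8 from 43295063 to 43306980 of mm10 on the minus strand, and its coding sequence of 864 bases is held in 1 exon at the far end from the transcription start site (TSS). *Yy1* (ENSMUSG00000021264.12) lies on chromosome 12 from 108792973 to 108820148 on the plus strand, with 5 coding exons and 1242 coding bases. *Yy2* (ENSMUSG00000091736.3) is a single exon of 2867 bases on the X chromosome, from 157566119 to 157568985 on the minus strand, with 1134 coding bases. It lies inside *Mbtps2*, the gene of a membrane protease, which is on the same strand. Over the alignable 3' part that holds the zinc fingers, the coding sequences of *Yy1* and *Yy2* were identical at 505 of 623 aligned bases (81.1%), those of *Zfp42* and *Yy1* at 251 of 326 (77.0%) and those of *Zfp42* and *Yy2* at 237 of 315 (75.2%). No run of 36 bases, the read length of the RNF12 libraries, was shared between any pair of them.

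The reference sequences at the strongest REX1 peak of each gene, and at the second REX1 peak of *Zfp42*, are shown because REX1 summits lie in them. Each is written 5' to 3' on the strand of its gene from GRCm38.p6, the assembly that mm10 names, and capitals mark ATGGC on either strand with any longer string searched that holds it. The REX1 string is ATGGC followed by G or T, then A, C or G, then C. The YY1 string is AAGATGGC. Both hold ATGGC and they can overlap each other.
*Zfp42* intron 1, chr8:43305821-43305941, minus strand: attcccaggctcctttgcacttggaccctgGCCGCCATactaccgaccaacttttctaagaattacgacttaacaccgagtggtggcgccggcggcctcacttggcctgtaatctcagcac
*Zfp42* TSS, chr8:43306927-43307047, minus strand: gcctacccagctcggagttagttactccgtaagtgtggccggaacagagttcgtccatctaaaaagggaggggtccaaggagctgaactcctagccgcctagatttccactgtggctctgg
*Yy1* intron 1, chr12:108794115-108794295, plus strand: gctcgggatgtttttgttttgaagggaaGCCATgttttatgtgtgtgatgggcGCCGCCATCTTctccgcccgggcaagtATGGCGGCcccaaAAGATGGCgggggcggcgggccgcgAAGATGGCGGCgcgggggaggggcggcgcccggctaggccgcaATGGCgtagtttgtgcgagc
*Yy2* TSS, chrX:157569029-157569149, minus strand: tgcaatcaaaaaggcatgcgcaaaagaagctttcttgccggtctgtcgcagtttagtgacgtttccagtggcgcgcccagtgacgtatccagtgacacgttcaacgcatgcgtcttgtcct
The *Zfp42* intron holds 1 match, the *Yy1* intron a dense group, and the stretches at the *Zfp42* and *Yy2* TSSs hold none.

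All 3 genes had at least 1 peak in each list. By the same rule, 78.4% of protein-coding genes had a REX1 peak, 79.2% an RNF12 WT peak and 80.7% an RNF12 H569A,C572A peak, and 72.4% had a peak of each list, so the presence of peaks at the family is near the background. It also depended on the threshold of the lists. With a −log10 q (the authors' measure of evidence for a peak) of at least 5, RNF12 WT had 0 peaks at *Yy1* and 0 at *Yy2*, while 68.7% of protein-coding genes kept a peak. This limit kept 44.7% of the RNF12 WT list, 54.9% of the REX1 list and 83.5% of the RNF12 H569A,C572A list. Among the 20000 peaks of each list with the highest −log10 q, RNF12 WT again had none at these genes (52.9% of genes had a peak), and RNF12 H569A,C572A had none at *Zfp42* and *Yy2* (39.1%). REX1 kept a peak at all 3 genes at both limits, as did 71.1% and 50.1% of protein-coding genes taken singly. *Yy1* held 5 peaks of REX1 and 3 of each RNF12 form. *Zfp42* held 2 of REX1 and 1 of each RNF12 form, and *Yy2* held 1 of REX1, 2 of RNF12 WT and 1 of the mutant. Longer genes collect more peaks, and 30.5% of the 2691 genes of similar length to *Yy1* (0.8 to 1.25 times) had at least as many REX1 peaks. For *Zfp42* and *Yy2* the corresponding shares were 63.8% of 2542 genes and 65.7% of 1096 genes. Of the 19 summits, 9 (47.4%) lay within 1 kb and 15 (78.9%) within 2 kb of the TSS of their gene, as the map of summits along each gene shows. All 3 lists had many summits near TSSs. Over peaks assigned by the same rule to any protein-coding gene the shares were 28.3% and 34.1%, and at genes no longer than *Yy1* they were 35.1% and 43.6%. The summits of the family are few and most of those near a TSS belong to *Yy1*, and no test was made of the difference.

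**Figure D1:**
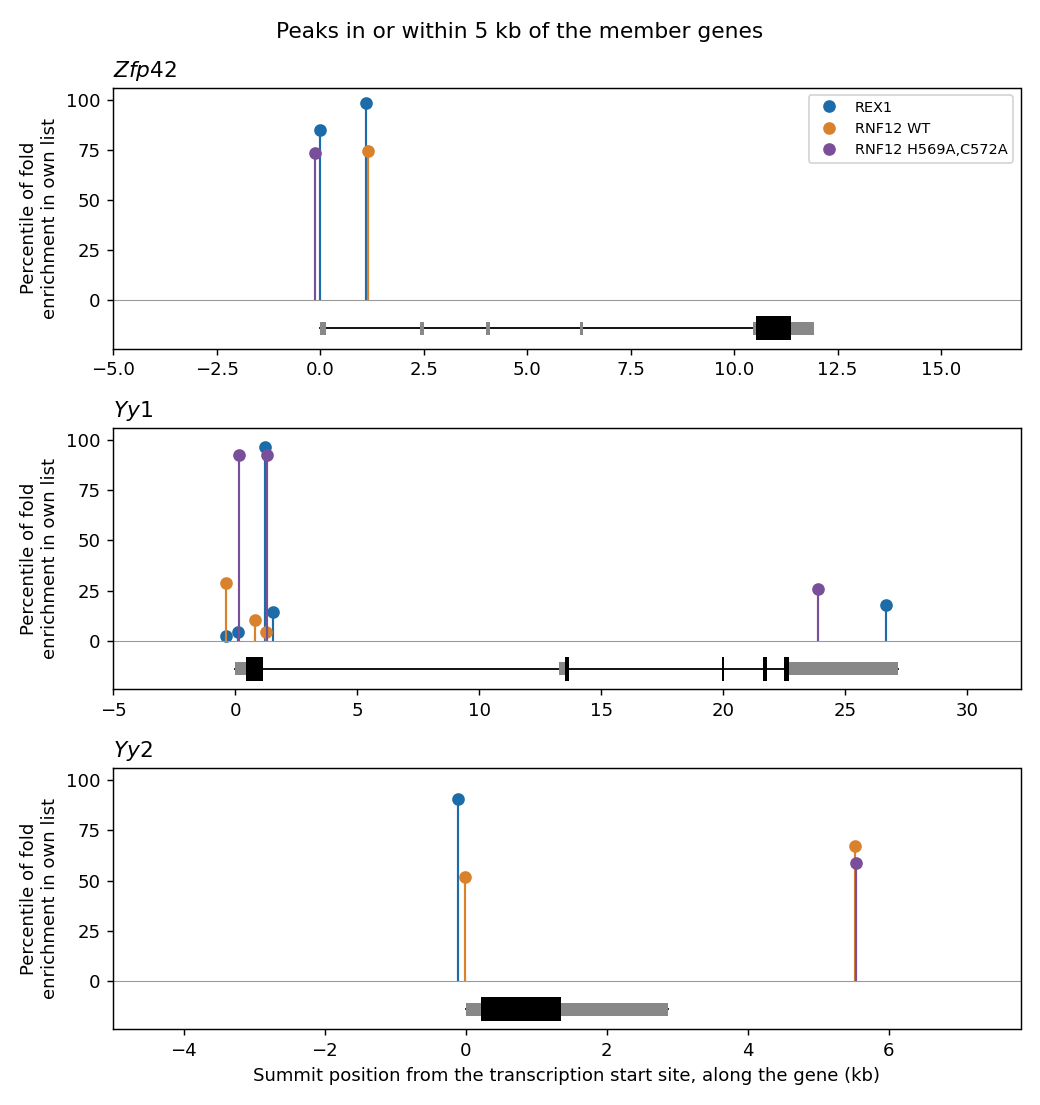
Summits in or within 5 kb of *Zfp42*, *Yy1* and *Yy2* by distance from the TSS in kb (horizontal axis), with the height of each stem giving the percentile of its fold enrichment within its own list (vertical axis, 1 library per list). Black boxes are coding exons and grey boxes other exons, and 15 of the 19 summits sit within 2 kb of a TSS.

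The strongest REX1 peak of each gene stood high within its list. Fold enrichment is the ratio of signal at a summit to the control as the authors' peak caller gave it. It was only ranked within a list, since each list rests on its own library and the series holds 2 controls for the 3 lists. The strongest REX1 peak had a fold enrichment of 11.7 at *Zfp42* (percentile 98.1, rank 1806 of 96050), 9.75 at *Yy1* (percentile 96.5, rank 3327) and 7.40 at *Yy2* (percentile 90.7, rank 8922). Against genes with at least 1 REX1 peak the positions were less extreme, since most genes hold several peaks. The strongest REX1 peak was lower than that of *Zfp42* at 89.9% of such genes, lower than that of *Yy1* at 83.0% and lower than that of *Yy2* at 63.1%. The order *Zfp42*, *Yy1*, *Yy2* held for fold enrichment, but by −log10 q *Yy1* came first with 54.7, percentile 99.3, followed by *Zfp42* with 26.8 and *Yy2* with 12.9.

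RNF12 ranked otherwise. In the RNF12 WT list the strongest peak stood at percentile 74.2 at *Zfp42*, 67.3 at *Yy2* and 28.7 at *Yy1*. The *Yy1* value was low for a gene with a peak, as only 5.45% of the genes with an RNF12 WT peak had a lower strongest peak. The shares for *Zfp42* and *Yy2* were 29.5% and 22.9%, so these too stood below the median gene with a peak. Ranked by −log10 q instead, *Zfp42* stood at percentile 87.3, *Yy2* at 47.3 and *Yy1* at 45.1, which leaves *Yy1* lowest but little below *Yy2*. In the RNF12 H569A,C572A list the order was *Yy1* at percentile 92.7, *Zfp42* at 73.5 and *Yy2* at 59.0, and the strongest peak was lower at 81.4%, 33.2% and 17.8% of the genes with a peak. Ranked by −log10 q the mutant order was again *Yy1* (93.7), *Zfp42* (67.7) and *Yy2* (49.2), which is also the REX1 order by −log10 q. The percentile of fold enrichment was thus highest in the REX1 list at each of the 3 genes, as it was at 5703 of the 15892 genes with peaks in every list (35.9%). Chromosome 12, which carries *Yy1*, held 2.35% of the RNF12 WT list (2289 peaks) against 6.13% of the REX1 list (5892) and 4.39% of the RNF12 H569A,C572A list (4303). The part of this low yield in the number and percentiles of the RNF12 WT peaks at *Yy1* was not tested. Among RNF12 WT peaks of chromosome 12 alone the strongest *Yy1* peak stood at percentile 36.4.

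**Figure D2:**
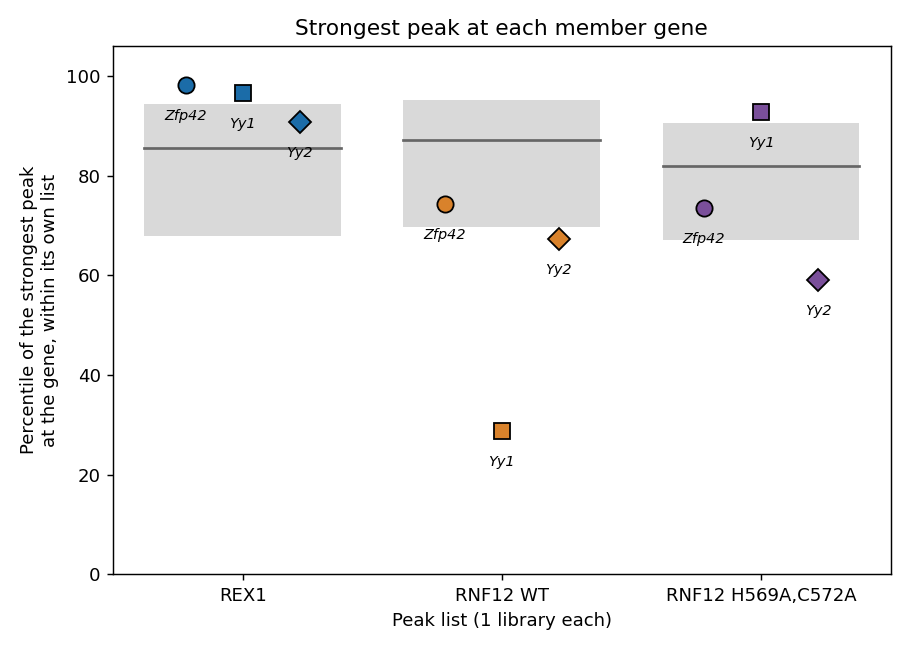
Percentile of the strongest peak at each member gene within its own list (vertical axis) for the 3 peak lists (horizontal axis, 1 library each). Grey boxes span the interquartile range of the same measure over all protein-coding genes with a peak in that list and the grey line is their median, and *Zfp42* and *Yy1* sit above the box for REX1, *Yy1* also for RNF12 H569A,C572A, whereas *Yy1* sits far below it for RNF12 WT and *Yy2* below it for both RNF12 forms.

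At *Zfp42*, the gene of REX1 itself, the lists met at different places. The stronger REX1 peak lay in intron 1, from 43305621 to 43305973 with its summit 1099 bp downstream of the TSS. The single RNF12 WT peak, from 43305761 to 43305912, lay wholly within it, with the summits 61 bp apart (fold enrichment 5.58, −log10 q 8.14). The second REX1 peak, from 43306873 to 43307063, spanned the TSS with its summit 7 bp upstream (6.42, −log10 q 10.1, percentile 85.0). The single RNF12 H569A,C572A peak, from 43307032 to 43307182, touched this peak over 32 bp, with its summit 123 bp upstream of the TSS and 116 bp from that of REX1 (9.96, −log10 q 15.2). The peaks of the 2 RNF12 forms therefore did not overlap each other, and their summits were 1283 bp apart. Such a pair is near the background, as 51.9% of the RNF12 WT list overlapped the mutant list and 42.6% of the mutant list overlapped RNF12 WT (49.2% and 45.2% on chromosome 8). With 1 library for each form, a different position of the mutant protein and a difference between libraries cannot be told apart.

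The intron 1 peak of *Zfp42* held 1 REX1 string, ATGGCGGC, on the plus strand from 43305904 to 43305911, 23 bp from the REX1 summit. It reads GCCGCCAT in the sequence shown above, on the strand of the gene. The RNF12 WT peak also reached over these bases, though they were more than 50 bp from its summit. No REX1 or YY1 string was found within 50 bp of the REX1 and RNF12 H569A,C572A summits at the TSS. No peak of any list touched the 864 coding bases of *Zfp42*, the part a REX1 expression construct shares with the genome. At *Rlim*, measured in the same way as the gene of the other tagged protein, 0 of 1800 coding bases lay under a peak in each of the 3 lists.

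At *Yy1* the REX1 signal centred on intron 1. The strongest peak ran from 108794048 to 108794358 with its summit 1222 bp downstream of the TSS. The other 4 REX1 peaks were weak, with fold enrichments of 2.67 at 399 bp upstream of the TSS, 2.85 in the 5' UTR at 96 bp downstream, 3.45 in intron 1 at 1543 bp and 3.52 in the 3' UTR at 26672 bp. They stood at percentiles 2.44, 4.44, 14.5 and 17.9 of the list. The summit upstream of the TSS also lies in the annotated gene *Gm34220*. The 3' UTR peak overlapped neither RNF12 list.

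RNF12 WT had 3 weak peaks at *Yy1*. Their fold enrichments were 3.99 at 359 bp upstream of the TSS (percentile 28.7), 3.20 in the first coding exon at 813 bp downstream (percentile 10.5) and 2.74 in intron 1 at 1254 bp (percentile 4.15). The intron peak, from 108794143 to 108794287, lay wholly inside the strongest REX1 peak with the summits 32 bp apart, but its −log10 q of 2.03 was among the lowest of its list (percentile 6.02). RNF12 H569A,C572A instead had broad, strong peaks over the 5' end. These ran from 108792233 to 108793263, which is 1031 bp, and from 108793327 to 108794701, which is 1375 bp, with fold enrichments of 17.4 and 17.5, against a median width of 148 bp in that list. The second of them lay over 679 of the 1242 coding bases of *Yy1* (54.7%), the whole first coding exon, and the other over none, whereas REX1 peaks lay over 44 (3.54%) and RNF12 WT peaks over 88 (7.09%). The 2 mutant peaks overlapped 4 REX1 peaks and all 3 RNF12 WT peaks between them. The remaining mutant peak, in the 3' UTR, 23886 bp from the TSS, was weak (5.36, percentile 25.5) and overlapped no peak of the other lists.

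**Figure D3:**
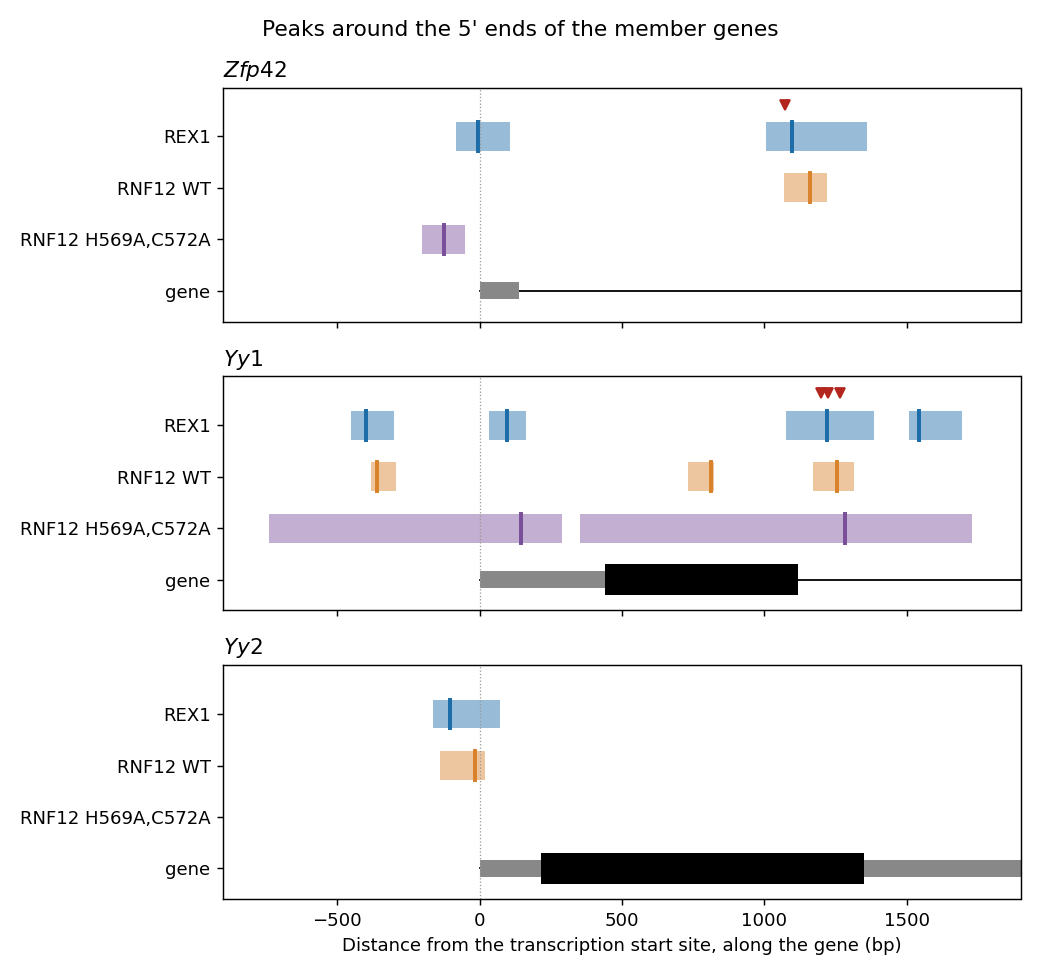
Peaks around the TSSs of *Zfp42*, *Yy1* and *Yy2* by distance from the TSS in bp (horizontal axis), with 1 row per list (vertical axis). Pale bars are peaks, dark lines their summits, red triangles REX1 strings in the REX1 peaks, black boxes coding exons and grey boxes other exons, and the 3 lists meet in *Yy1* intron 1, while the RNF12 WT and RNF12 H569A,C572A peaks at *Zfp42* do not overlap (51.9% of the RNF12 WT list overlapped the mutant list).

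The strongest *Yy1* peak sits on an array of the family's own recognition sequence. Within the peak, ATGGC occurred 6 times on either strand in 138 bp, from 108794143 to 108794280. It included 3 matches to the REX1 string, each ATGGCGGC, and 3 to the YY1 string AAGATGGC. On each strand 1 of the YY1 strings runs into a REX1 string as AAGATGGCGGC. The REX1 summit was the first base of the ATGGCGGC from 108794195 to 108794202. Such arrays were rare among REX1 peaks. At least 1 REX1 string lay within 50 bp of the summit in 12.8% (95% Wilson interval 12.6% to 13.1%) of the 95945 REX1 peaks with sequence here, but at least 3 in only 26 peaks (0.0271%), and at least 3 YY1 strings in 4 peaks (0.00417%). The limit of 3 is the count of each string at the *Yy1* peak itself, which is therefore among both, and the 2 counts share bases. ATGGC occurred 4 times within 50 bp of the *Yy1* summit, and at least 4 times at 154 REX1 peaks (0.161%).

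**Figure D4:**
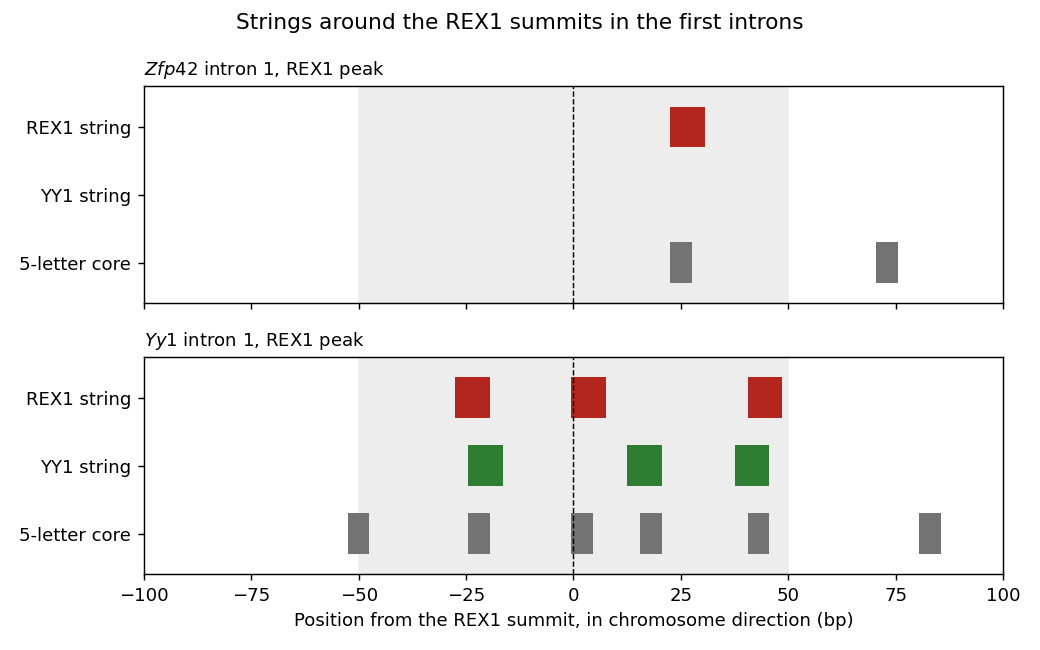
Matches to the REX1 string, the YY1 string (AAGATGGC, green) and the 5-letter core ATGGC (rows) by position in bp from the REX1 summit (horizontal axis, dashed line at 0) in intron 1 of *Zfp42* and of *Yy1*. The grey band is the 50 bp on either side of the summit, which holds 1 REX1 string at *Zfp42* and 3 at *Yy1*.

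Of the 19 peaks at the family, 4 had a REX1 string within 50 bp of the summit, and these were the strongest REX1 peaks of *Zfp42* and *Yy1* and the RNF12 WT and RNF12 H569A,C572A peaks in *Yy1* intron 1. By list they were 2 of 8 (REX1), 1 of 6 (RNF12 WT) and 1 of 5 (the mutant). Over whole lists the REX1 string was near 4.69% of RNF12 WT summits and 3.58% of mutant summits, and the YY1 string near 5.67% of REX1, 1.83% of RNF12 WT and 1.71% of mutant summits. None of the RefSeq promoters of the 3 genes (250 bases before the start to 50 after, GRCm38.p6) held either string, which 7.14% and 2.75% of 32851 promoters did. The RefSeq promoter of *Yy1* was 81.0% G and C, above 99.3% of promoters, against 57.7% for *Zfp42* and 51.3% for *Yy2*. RefSeq places the start of *Yy1* downstream of the GENCODE start used for distances here, and the promoter window does not reach the intron array.

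At *Yy2*, REX1 and RNF12 WT met at the TSS. The REX1 peak ran from 157568915 to 157569148 with its summit 104 bp upstream. An RNF12 WT peak from 157568966 to 157569124 lay wholly inside it, with its summit 15 bp upstream of the TSS and 89 bp from that of REX1 (4.71, −log10 q 4.50, percentile 52.0). RNF12 H569A,C572A had no peak there. On the X chromosome, 54.7% of REX1 peaks and 69.6% of RNF12 WT peaks overlapped an RNF12 H569A,C572A peak. The nearest RNF12 H569A,C572A summit was 5632 bp from that of REX1. That summit lay 2662 bp beyond the 3' end of *Yy2*, within *Mbtps2* (7.70, −log10 q 9.38). The second RNF12 WT peak was at the same place with the summits 11 bp apart (5.26, −log10 q 4.54). Since *Yy2* lies inside *Mbtps2*, every peak assigned to it is also in that gene, which held 4 REX1, 6 RNF12 WT and 6 RNF12 H569A,C572A peaks in all. The REX1 peak at the *Yy2* TSS was the strongest REX1 peak of *Mbtps2* as well.

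Across the family, 4 of the 8 peaks of REX1 shared at least 1 bp with RNF12 WT (50%, 95% Wilson interval 21.5% to 78.5%), against 39.5% of the whole REX1 list. On chromosome 12, which holds 5 of the 8, only 21.5% of REX1 peaks overlapped RNF12 WT, and 63.4% of the RNF12 WT peaks there overlapped REX1. An RNF12 H569A,C572A peak was overlapped by 5 of 8 (62.5%, 30.6% to 86.3%), against 40.7% of the list. Of these 5 overlaps, 4 were with the broad mutant peaks at *Yy1*, and 2 remained with summits within 100 bp and 0 with an overlap of 50% of both peaks. In the other direction, 4 of 6 RNF12 WT peaks (66.7%, 30.0% to 90.3%) and 3 of 5 RNF12 H569A,C572A peaks (60.0%, 23.1% to 88.2%) overlapped REX1, against 41.2% and 34.2% of their lists. With 8, 6 and 5 peaks the intervals are too wide to set these shares apart from those of the whole lists. Neighbouring peaks of a gene are also not independent, and no conclusion is drawn from the intervals. The strongest REX1 peak of each gene overlapped an RNF12 WT peak, and only that of *Yy1* also overlapped RNF12 H569A,C572A. Those RNF12 WT peaks were weak at *Yy1* (−log10 q 2.03) and *Yy2* (4.50), and neither reached a −log10 q of 5. The same shares for the strongest REX1 peaks of other genes were not computed.

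The farthest summits inside the limit of 5 kb were those 2651 and 2662 bp beyond *Yy2*, and the nearest outside it was an RNF12 H569A,C572A summit 6166 bp upstream of *Zfp42*, followed by 3 more at 6573, 7349 and 9288 bp. The 36 bases at these 4 summits occurred 31, 35, 17 and 11 times in the genome, whereas those at each of the 19 summits inside the limit occurred once. Downstream of *Yy1* the nearest was an RNF12 WT summit at 6733 bp, in *Slc25a29*.

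Few genes lie close to the family. The nearest protein-coding genes to *Zfp42* were *Triml2*, 101182 bp away with 2 REX1 peaks and 1 RNF12 WT peak, and *Adam26b*, 212782 bp away with no peak in any list. Those of *Yy1* were *Slc25a29*, 5725 bp away, with 3 REX1, 4 RNF12 WT and 6 RNF12 H569A,C572A peaks, and *Degs2*, 90658 bp away, with 5 REX1 and 2 RNF12 H569A,C572A peaks. Beyond *Mbtps2*, those of *Yy2* were *Sms* at 73832 bp, with 2 REX1, 3 RNF12 WT and 1 RNF12 H569A,C572A peaks, and *Smpx* at 129925 bp, without a peak.

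Among all protein-coding genes, likeness to a member was measured as the sum of the differences in 6 percentiles, those of the number of peaks and of the strongest fold enrichment in each of the 3 lists. The closest genes to *Zfp42* were *Zfp871* (summed difference 16.6), *Sap18b* (24.7) and *Ccnb2* (25.0). *Vezt* (20.7), *Zfp442* (21.6) and *Adss* (25.2) were closest to *Yy1*, and *Zfp108* (9.23), *Ifi47* (9.46) and *Siglecg* (15.3) to *Yy2*. None of the 3 members was among the closest genes of another member. With only 3 genes listed for each out of 21938, this absence says little about how alike the members are.

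YY1 acts with the INO80 chromatin remodelling complex, with HCFC1 and BAP1, and with RYBP, YAF2 and SFMBT2 of Polycomb-type complexes. All 19 genes listed for these partners had a peak in each list, against 72.4% of protein-coding genes. Their median number of peaks was 4 (REX1), 6 (RNF12 WT) and 4 (the mutant), against 3, 3 and 2 over all protein-coding genes. Longer genes collect more peaks, and no comparison with genes of similar length was made for these 19 genes. The median percentile of their strongest peak was 86.4, 92.4 and 86.5 in the same order, against 85.5, 87.0 and 82.0 over all protein-coding genes with a peak, so the REX1 value is near the background. The highest REX1 fold enrichments were those of *Actr8* (20.8), *Ino80* (18.4) and *Nfrkb* (15.2), and each exceeded the 11.7 of *Zfp42*. They encode INO80 subunits, as do most genes of the list, including *Ruvbl1* with the lowest REX1 value (4.14, percentile 37.8). The *Actr8* and *Ino80* summits lay 26 and 15 bp downstream of their TSSs, and that of *Nfrkb* 24265 bp downstream.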

How the data were processed

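V5 ChIP-seq was measured in 3 libraries (REX1, RNF12 WT and RNF12 H569A,C572A) with 2 controls, grouped by the labels. The authors trimmed reads (Trim Galore 0.6.7), aligned them with Bowtie2 2.5.0 to mm10 masked at strain differences, used SAMtools 1.10 and called narrow peaks with MACS2 2.2.7.1 on single libraries, as the methods and the submitters' processing notes give it. Each deposited peak carries a fold enrichment, which is the ratio of its signal to the control. The deposited lists also hold −log10 p and −log10 q, and a score that was not used here. Read totals are not given in the sources used here, so the depth is unknown, and intervals (95% Wilson) cover counting error only. With 1 library per list there are no replicates, and no test was made.

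Gene bodies came from GENCODE mouse release 21 and bases from GRCm38.p6. Peaks were assigned by summit, ranked within their list and compared by overlap of at least 1 bp, and strings were searched on both strands within 50 bp of the summit. Peaks on sequences outside the chromosomes had no bases here. Named genes are the 3 members, *Rlim*, *Mbtps2*, the nearest neighbours, the 3 most alike genes of each member and the 3 of the 19 partner genes with the highest REX1 fold enrichment. *Ruvbl1* and *Gm34220* were chosen after their values were seen, and the shares of genes at stricter limits were added then. The members and lists were chosen with earlier results of these data known. Counts of the ATGGC core, of 36-base words and of coding identity, the share of all summits near TSSs and the rank within a chromosome were added after the data were seen. Scripts ran in Python 3.11.15 with scipy 1.17.1, pandas 2.3.3 and numpy 2.4.6, and the assignment, overlap and string steps were tested on simulated data. Alternatives to the distance, the threshold of the lists, the ranking, the overlap and the string window are in the closing section.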

Additional observations from a re-analysis of the deposited data

How the results depend on the processing

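Of 120 recomputed values, 69 stayed within 1.5 times the count or, for a percentile, within its 95% Wilson interval. Orders between values did turn. *Zfp42* stood above *Yy1* in the REX1 list by fold enrichment and below it by −log10 q. REX1 had more peaks than RNF12 H569A,C572A at *Zfp42* and *Yy1*, but fewer at both at 10 kb (2 against 5, and 5 against 6). The RNF12 H569A,C572A summits added at *Zfp42* had 36 bases that occur 11 to 35 times in the genome. Those added at *Yy1* lie in *Slc25a29*. REX1 also had fewer peaks at *Yy1* when 20000 peaks were kept per list (1 against 2). No paired analysis was possible because each list is 1 library and no result comes from a test. At the limit of 5 kb, every count of peaks was the same with a −log10 q of at least 2 and with any base of the peak in place of the summit. It was also the same, at 5 kb, with only summits whose 36 bases occur once.

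At a distance of 1 kb, *Yy2* kept 1 RNF12 WT peak and 0 RNF12 H569A,C572A peaks. At 10 kb, RNF12 H569A,C572A had 5 peaks at *Zfp42* and 6 at *Yy1*, and RNF12 WT 5 at *Yy1*. With a −log10 q of at least 5, REX1 kept 3 peaks at *Yy1*, RNF12 WT kept 0 at *Yy1* and 0 at *Yy2*, and 0 coding bases of *Yy1* lay under RNF12 WT peaks. Among the 20000 peaks of each list with the highest −log10 q, REX1 kept 1 peak at *Yy1*, RNF12 WT 0 at *Yy1* and 0 at *Yy2*, and RNF12 H569A,C572A 0 at *Zfp42* and 0 at *Yy2*.

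Ranked by −log10 q, the REX1 percentiles of *Zfp42*, *Yy1* and *Yy2* were 96.7, 99.3 and 87.1, those of RNF12 WT 87.3, 45.1 and 47.3, and those of RNF12 H569A,C572A 67.7, 93.7 and 49.2. Among peaks near protein-coding genes those of REX1 were 97.9, 96.3 and 90.3, those of RNF12 WT 72.5, 25.5 and 65.4, and those of RNF12 H569A,C572A 74.9, 94.5 and 60.4. Among peaks of the same chromosome, a ranking chosen after seeing the data, REX1 had 98.3, 96.5 and 88.2, RNF12 WT 76.3, 36.4 and 71.1, and RNF12 H569A,C572A 74.0, 90.7 and 53.4. The REX1 percentile was the highest of the 3 lists at each gene in all of these rankings.

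With an overlap of 50% of both peaks, 2 REX1 peaks overlapped RNF12 WT and 0 overlapped RNF12 H569A,C572A. By that rule 2 RNF12 WT peaks overlapped REX1 and 1 overlapped RNF12 H569A,C572A, while 0 RNF12 H569A,C572A peaks overlapped REX1 and 1 overlapped RNF12 WT. With summits within 100 bp, 2 REX1 peaks and 2 RNF12 WT peaks met RNF12 H569A,C572A. The broad RNF12 H569A,C572A peaks at *Yy1* cannot share 50% of their own width with narrow peaks. With the YY1 string in place of the REX1 string, 1 REX1 peak had a match. Within 100 bp of the summit, and anywhere in the peak, 2 RNF12 WT peaks held the REX1 string.

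The limits are 1 library for each list, an unknown depth, tagged protein from a construct, proteasome inhibition in the RNF12 cells, and controls that were not analysed here. A missing peak says only that the caller made none at this depth.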
